A study of Mus musculus with 15 samples.

Results

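The libraries were made from nuclei sorted for Pcm1, and they fell into 6 with a high and 9 with a low level of RNA from cells that are not cardiomyocytes. The members were chosen by a measured value: a library was placed among the high ones when Pecam1, an adhesion molecule of endothelial cells, stood at 20 CPM or more, that is, 20 counts in every 1000000 counts of the library. The high libraries are 6 of 15 in all: 2 of the 4 labelled Pgr_KO female (replicates 1 and 2), 2 of the 4 labelled Pgr_KO male (replicates 1 and 2), 1 of the 3 labelled Pgr_WT female (replicate 1) and 1 of the 4 labelled Pgr_WT male (replicate 1). The member closest to the threshold from above, knockout female 1, had 38.55 CPM of Pecam1, and the closest from below, wild-type male 2, had 7.84 CPM. Because Pecam1 in these same libraries made the split, every difference between high and low libraries is given as a description and not as a test.

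All 15 libraries hold RNA of nuclei from whole mouse ventricular muscle, sorted for Pcm1, depleted of ribosomal RNA and built with a kit that marks the strand. The tissue label adds the numbers 3 and 6 without a unit. Neither a treatment nor the allele, promoter or age behind the strains Pgr_WT and Pgr_KO is given in the labels, and nothing says that replicates are separate animals, so p-values measure only the spread between these samples. Pgr, the gene of the progesterone receptor, went against the genotype labels: it stood at 6.10 to 12.5 CPM in the libraries labelled knockout and at 0 to 0.267 CPM in those labelled wild type. Knockout female 2, which is a high library, and wild-type female 2 and wild-type male 2, which are low ones, also hold reads of the other sex. Names such as knockout female 2 stand for the library labelled so throughout.

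Pcm1 is a scaffold protein of centriolar satellites. In cardiomyocytes it gathers around the nuclear envelope, which allows their nuclei to be sorted from those of other cells. The heart also holds many endothelial cells, fibroblasts, pericytes and smooth muscle cells, macrophages, and a mesothelial sheet on its surface, the epicardium. Markers of these cells give a measure of what other nuclei or free RNA a sort carried along. In bulk samples, fewer cells of a type and less RNA per cell cannot be told apart.

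Counts covered whole gene bodies with their introns, and total counts ran from 24397346 to 139418751 per library (median 49942678). They were 24397346 to 72116303 in high and 28638353 to 139418751 in low libraries, a difference in mean log2 total of -0.36 that was within the spread (two-sided exact permutation test over 5005 arrangements, p = 0.336, n = 6 and 9). The number of genes at 1 CPM or more was 13201 to 13497 in high and 11799 to 12478 in low libraries, without overlap. Mitochondrially encoded genes took 0.376% to 1.12% of the counts in high and 0.254% to 0.619% in low libraries, with overlap. The split also followed the replicate number: 4 of 4 libraries numbered 1, 2 of 4 numbered 2, 0 of 4 numbered 3 and 0 of 3 numbered 4 were high. What the numbers stand for is not given in the labels.

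The following 3 stretches upstream of transcription starts are printed as examples of a motif match before a cardiomyocyte or an endothelial gene and are not typical of their lists, with positions in GRCm38.p6 and starts and bases from RefSeq. They were chosen after the motif matches had been seen. Capitals mark the match, and each sequence holds the 250 bases before a start, read on the gene's strand. The first belongs to the sarcomere protein titin and holds a MEF2 site 166 bases before the start (chr2:76982548-76982797, minus strand). The second belongs to Myl3, a ventricular myosin light chain, and holds a CArG box, the site of serum response factor, 85 bases before the start, which lies inside the span of the gene in the count table (chr9:110763428-110763677, plus strand). The third lies before an internal start of Erg, an endothelial transcription factor, inside the gene, and holds a GATA motif on the opposite strand, 103 bases before the start (chr16:95459349-95459598, minus strand).
Ttn: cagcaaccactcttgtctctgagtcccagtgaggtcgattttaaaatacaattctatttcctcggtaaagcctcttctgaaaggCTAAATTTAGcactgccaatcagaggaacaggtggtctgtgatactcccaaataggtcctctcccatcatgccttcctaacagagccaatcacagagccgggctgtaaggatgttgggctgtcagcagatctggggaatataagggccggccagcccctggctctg
Myl3: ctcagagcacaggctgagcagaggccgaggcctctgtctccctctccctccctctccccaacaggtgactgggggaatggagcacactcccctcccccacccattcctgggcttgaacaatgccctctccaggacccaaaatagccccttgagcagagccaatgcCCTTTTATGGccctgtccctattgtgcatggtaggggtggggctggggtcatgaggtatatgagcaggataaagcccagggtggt
Erg: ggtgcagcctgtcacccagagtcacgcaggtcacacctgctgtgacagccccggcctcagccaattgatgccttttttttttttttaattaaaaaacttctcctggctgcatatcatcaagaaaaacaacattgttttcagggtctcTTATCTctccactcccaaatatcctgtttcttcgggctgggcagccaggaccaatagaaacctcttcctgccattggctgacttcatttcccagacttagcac

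A set of 5 motifs was searched on both strands in windows from 250 bases before to 50 after each start: the MEF2 site, the CArG box, the GATA motif (AGATAA), an ETS motif (CCGGAAG) and a forkhead motif (TGTTTAC). Matches of different motifs may overlap. A MEF2 site stood in 13.2% of 38 promoters of the sarcomere list (27 of its 34 genes had an entry) and in 0.557% of all 32851 promoters. A CArG box stood in 15.8% of the sarcomere promoters and in 1.63% of all. Of the 26 promoters of the endothelial list (19 of 30 genes), 3.85% held the ETS motif and 7.69% the GATA motif, against 8.86% and 11.2% of all promoters. The promoters that the naming rule picks, those of Eng, Fbln2, Ebf1 and Lmod2, held none of the 5 motifs. These are matches of letters within short windows and not measured sites.

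**Figure D1:**
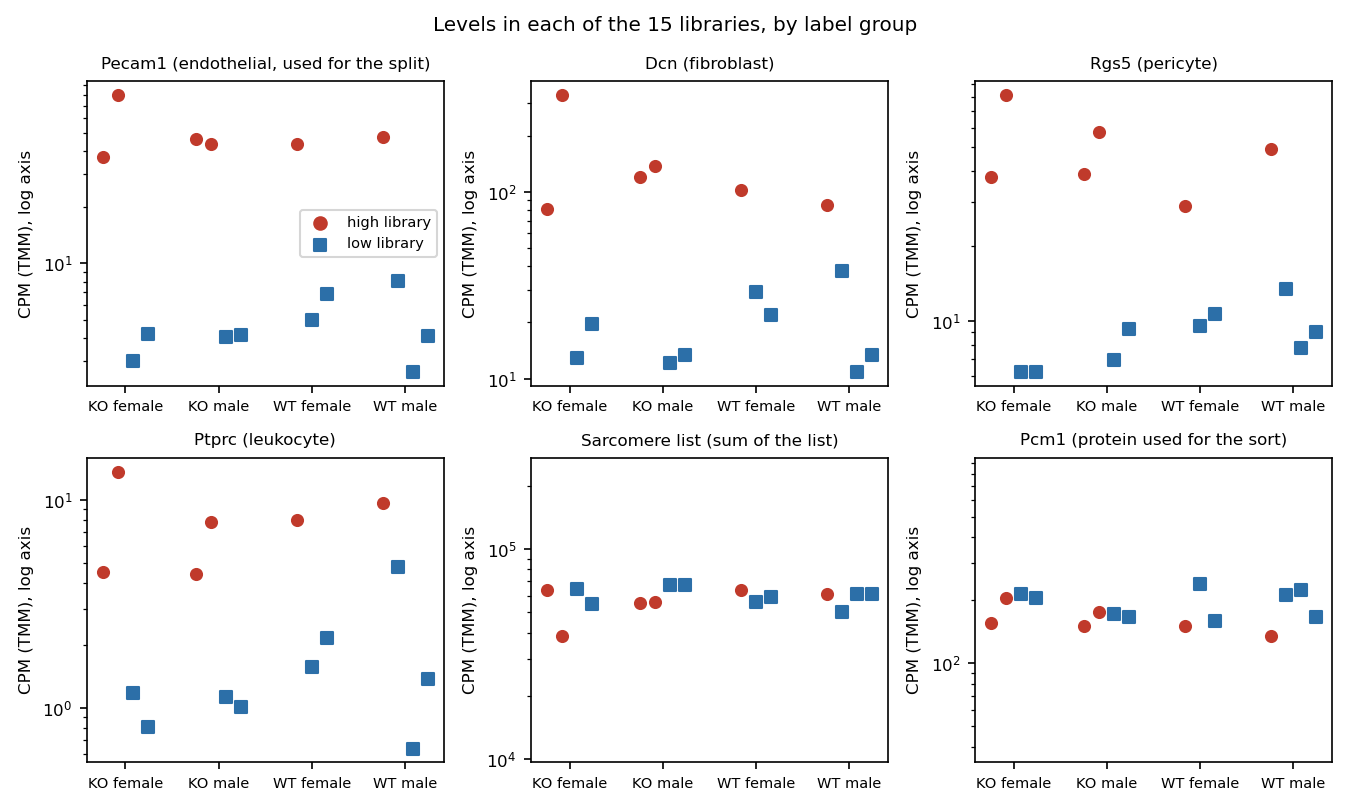
Levels per library on log axes, by label group (KO, labelled knockout; WT, labelled wild type), with 1 point per library: the 4 markers, the summed sarcomere list and Pcm1, in CPM on TMM library sizes. Red circles are the 6 high and blue squares the 9 low libraries; Pecam1, Dcn and Rgs5 do not overlap between them, Ptprc does, and so do the sarcomere sum and Pcm1.

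The 4 markers of other cell types stood 5.76 to 11.1 times higher in the fit across all libraries. From here on levels are CPM on library sizes scaled with TMM, a trimmed mean of log ratios between libraries, and differences are log2 values of high minus low from edgeR with a term for the 4 label groups, ± standard error. Pecam1, which made the split, had a median of 45.2 CPM (37.0 to 79.5) in high and of 4.13 CPM (2.62 to 8.06) in low libraries, a difference of 3.47 ± 0.24. Dcn, a collagen-binding proteoglycan of fibroblasts, had 81.3 to 328.4 CPM (median 111.0) in high and 10.8 to 37.6 CPM (median 13.4) in low libraries (2.93 ± 0.38). These groups of libraries do not overlap for either gene, although the low ones differ among themselves by more than 3 times in Dcn. Rgs5, a regulator of G protein signalling in pericytes, had 29.1 to 80.9 CPM (median 44.2) in high and 6.22 to 13.4 CPM (median 9.03) in low libraries (2.53 ± 0.23). Ptprc, the leukocyte phosphatase CD45, had 4.41 to 13.7 CPM (median 7.94) in high and 0.637 to 4.74 CPM (median 1.18) in low libraries (2.54 ± 0.37), and there the groups overlap by 1 library, wild-type male 2.

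Among the high libraries, knockout female 2 stood apart. Its summed level of the 30 endothelial markers was 1614 CPM, against 847 CPM in knockout female 1, 919 and 926 CPM in knockout male 1 and 2, 1007 CPM in wild-type female 1 and 1047 CPM in wild-type male 1. The low libraries held 84.2 and 115 CPM (knockout female 3 and 4), 113 and 122 CPM (knockout male 3 and 4), 138 and 189 CPM (wild-type female 2 and 3) and 241, 82.9 and 122 CPM (wild-type male 2, 3 and 4). So the gap between the lowest high and the highest low library was larger than the range of the low libraries. Pecam1, which made the split, is 1 of the 30 markers summed. Knockout female 2 also had the lowest summed sarcomere level of all 15 libraries, 38702 CPM, where the other high libraries had 55223 to 63569 CPM and the low ones 50310 to 67563 CPM. Without it, the median difference of the endothelial list was 2.96 in place of 3.09, that of the fibroblast list 2.86 in place of 2.99 and that of the sarcomere list 0.01 in place of -0.06.

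Over the 16876 tested autosomal genes, 3481 were called higher (20.6%) and 1358 were called lower (8.05%) in the high libraries, 28.7% in either direction. Called means a Benjamini-Hochberg adjusted p below 0.05 in edgeR's quasi-likelihood test, used here as a yardstick only. In 2282 genes (13.5%) all 6 high libraries lay above all 9 low ones, and in 184 (1.09%) all lay below. In 6920 genes (41.0%) the 95% interval of the difference lay inside -0.5 to 0.5 on the log2 scale, which is called level below. A gene can be level and called at once, so the counts of a list can add up to more than its tested genes. Atp2a2, Esrrg and Abcc9 below were both level and called lower. The calls were 71.9% higher on TMM scaling, 96.6% higher on total counts, 62.8% with DESeq2 size factors, 63.6% with upper quartiles and 58.3% with DESeq2, so the number of lower calls rests on the scaling. Total counts moved the median of all genes from -0.02 to 0.13. The lower calls numbered 473 without wild-type male 1, 708 without wild-type female 1 and 886 without knockout female 4.

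**Figure D2:**
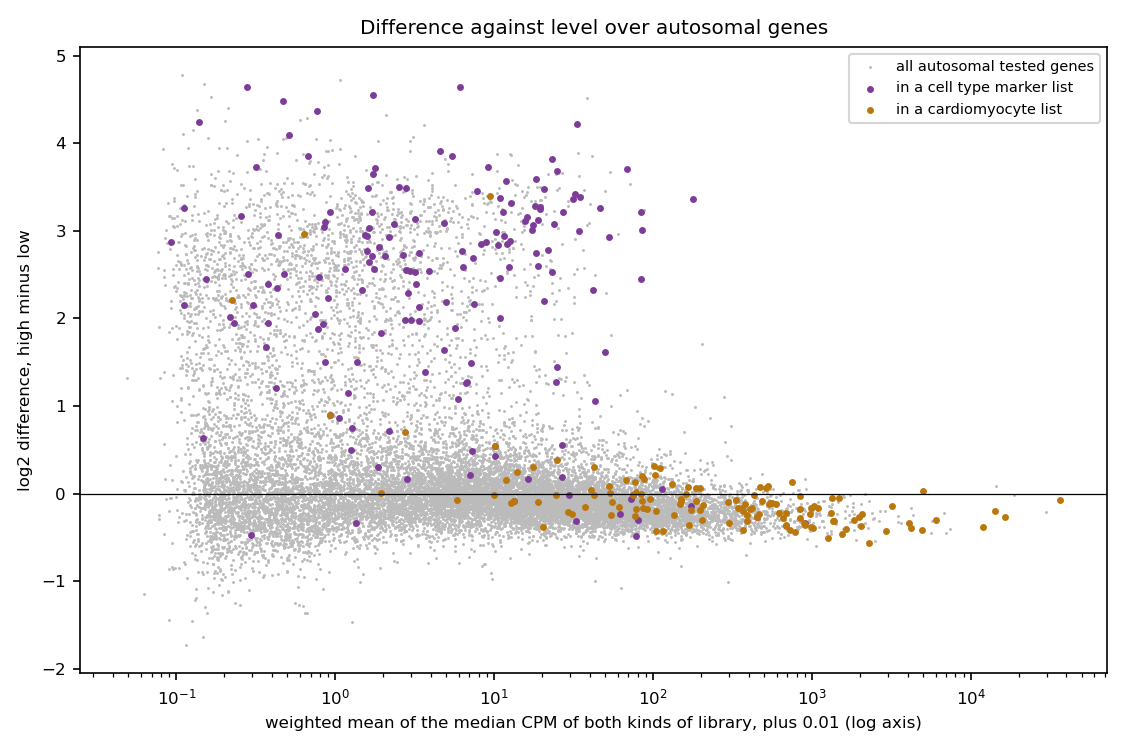
Each point is 1 of 16876 autosomal genes: its level over both kinds of library in CPM (x, log axis) and its log2 difference, high minus low (y). Genes of the cell type marker lists (purple) lie mostly between 1 and 5 on the y axis and cardiomyocyte genes (brown) mostly within 0.5 of 0 at higher levels.

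The endothelial programme stood higher as a whole: 30 of 30 markers were called higher, and in all 30 the groups did not overlap. Their median difference was 3.09, against -0.03 over all autosomal genes. Pecam1, which made the split, is 1 of the 30, so its own place among them was fixed in advance. The sum of the list without Pecam1 did not overlap either (810 to 1535 CPM in high and 80.2 to 233 CPM in low libraries). Vwf, the clotting protein stored by endothelial cells, had 60.4 to 236 CPM (median 76.9) in high and 2.03 to 13.3 CPM (median 4.01) in low libraries (4.22 ± 0.39). Cdh5, the cadherin of endothelial junctions, had 26.2 to 43.9 CPM in high and 1.82 to 7.11 CPM in low libraries (3.15 ± 0.26). The smallest differences within the list belonged to Shank3 (2.20 ± 0.15) and Mecom (2.45 ± 0.19), the latter a transcription factor that gave 25.4% of the summed list in the low libraries and 16.9% in the high ones. Markers of the endocardium and of lymphatic vessels were called higher in 8 of 10 tested, with Cytl1 (3.65 ± 0.29), Plvap (3.13 ± 0.18) and Npr3 (2.78 ± 0.23), a clearance receptor for natriuretic peptides, among them. The remaining 2 were Reln (0.43 ± 0.19) and Prox1 (-0.15 ± 0.08). Prox1 is a regulator of lymphatic fate that heart muscle also uses, and it had 136.7 to 190.9 CPM in high and 158.6 to 187.5 CPM in low libraries.

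Fibroblast markers were called higher in 30 of 30, again without overlap, with a median difference of 2.99. Gsn, which severs actin filaments, had 321 to 878 CPM (median 392) in high and 23.3 to 108 CPM (median 36.7) in low libraries (3.37 ± 0.34). Pi16, found on adventitial fibroblasts, had 15.4 to 29.0 CPM in high and 0.818 to 3.72 CPM in low libraries (3.73 ± 0.30), and Mfap5, a protein of elastic microfibrils, 8.55 to 15.8 CPM and 0.283 to 1.85 CPM (3.91 ± 0.31). Tcf21, a transcription factor that defines cardiac fibroblasts, differed by 3.49 ± 0.33 and the receptor Pdgfra by 3.29 ± 0.32. The list is not uniform: Smoc2 (1.05), Fbln1 (1.28), Cdh11 (1.45) and Bicc1 (1.62) had the smallest differences and stood well under the median.

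Epicardial markers had the largest median of all 35 lists, 3.85, with 12 of 13 called higher. Muc16, a membrane mucin of mesothelium, had 9.60 to 25.4 CPM (median 14.5) in high and 0.231 to 2.30 CPM (median 0.503) in low libraries (4.64 ± 0.42). Upk3b, a uroplakin of mesothelium, had 3.11 to 7.65 CPM and 0.0236 to 0.379 CPM (4.55 ± 0.34), and Wt1, the Wilms tumour transcription factor of the epicardium, 4.61 to 8.28 CPM and 0.141 to 1.45 CPM (3.50 ± 0.33). The low values of Upk3b reach the floor of 3 counts, which lies at 0.0215 to 0.123 CPM depending on the library. Tbx18, a transcription factor of epicardium and of mural cells, did not follow the others: it had 6.67 to 14.2 CPM in high and 5.85 to 10.6 CPM in low libraries (0.21 ± 0.17) and made up 67.2% of the summed list in the low ones.

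Mural markers split. Of 18 tested, 15 were called higher, with Ebf1 (3.22 ± 0.29), a transcription factor also used by B cells and fat cells, the receptor Pdgfrb (2.47 ± 0.28) and the adhesion molecule Mcam (1.96 ± 0.16) among them. Abcc9, a subunit of ATP-sensitive potassium channels in pericytes and in heart muscle, was the 1 marker called lower: it had 364.5 to 416.1 CPM (median 411.9) in high and 449.1 to 589.9 CPM (median 481.0) in low libraries (-0.27 ± 0.08). Acta2 (-0.30 ± 0.27), smooth muscle actin, and Cspg4 (-0.02 ± 0.12), the proteoglycan NG2, were not called. Abcc9 alone made up 72.5% of the summed mural level in the low and 48.0% in the high libraries. The mural sum therefore overlapped (758 to 962 CPM against 603 to 797 CPM), whereas the sum without Abcc9 did not (342 to 545 CPM against 129 to 255 CPM).

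Macrophage and leukocyte markers were called higher in 22 of 23, 14 of them without overlap, with a median of 2.54. The complement gene C1qb had 2.58 to 5.89 CPM in high and 0.307 to 1.30 CPM in low libraries (2.72 ± 0.26), and Csf1r, the receptor on which macrophages depend, 8.22 to 17.3 CPM and 0.948 to 5.24 CPM (2.76 ± 0.27). F13a1 and Mrc1, both of resident macrophages, differed by 2.75 ± 0.30 and 2.59 ± 0.32, and Fcer1g by 0.17 ± 0.13. Of 7 lymphocyte markers tested, 5 were called higher, among them Bank1 of B cells (2.13 ± 0.26) and Themis of T cells (2.16 ± 0.51), and Cd3e (-0.47 ± 0.37) was not. Globin genes and platelet Pf4 were among 6 of 7 erythroid and platelet genes called higher: Hbb-bs had 12.8 to 36.3 CPM in high and 2.71 to 10.3 CPM in low libraries (2.01 ± 0.28).

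Smaller populations showed mixed lists. Of 8 markers of Schwann cells and nerves, 5 were called higher: Mbp (2.56 ± 0.17), a myelin protein, had 2.88 to 4.93 CPM in high and 0.307 to 0.890 CPM in low libraries. Of 7 adipocyte markers tested 5 were called higher, among them Fabp4 (2.84 ± 0.24), which capillary endothelium also expresses, and Plin1 (3.17 ± 0.41), a coat protein of lipid droplets. In low libraries Plin1 (0 to 0.132 CPM), Cidec (0 to 0.0315 CPM) and Adipoq (0 to 0.0432 CPM) reach the floor of 3 counts. They were kept for testing through their level in high libraries, so their calls do not count as support. Lep and Ucp1 were too low to be tested. Lpl, the lipase that heart muscle makes in quantity, made up 93.7% of the adipocyte sum in low libraries and differed by -0.33 ± 0.13. Of 12 atrial and conduction genes 7 were called higher. Nr2f2 (3.03 ± 0.32), a transcription factor of atria and veins, and the atrial light chain Myl7 (1.51 ± 0.34) were among them, while Tbx5 (-0.01 ± 0.14), Hcn4 (-0.09) and Nppa (-0.49 ± 0.28) were not. None of 4 skeletal muscle genes was called by edgeR.

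**Figure D3:**
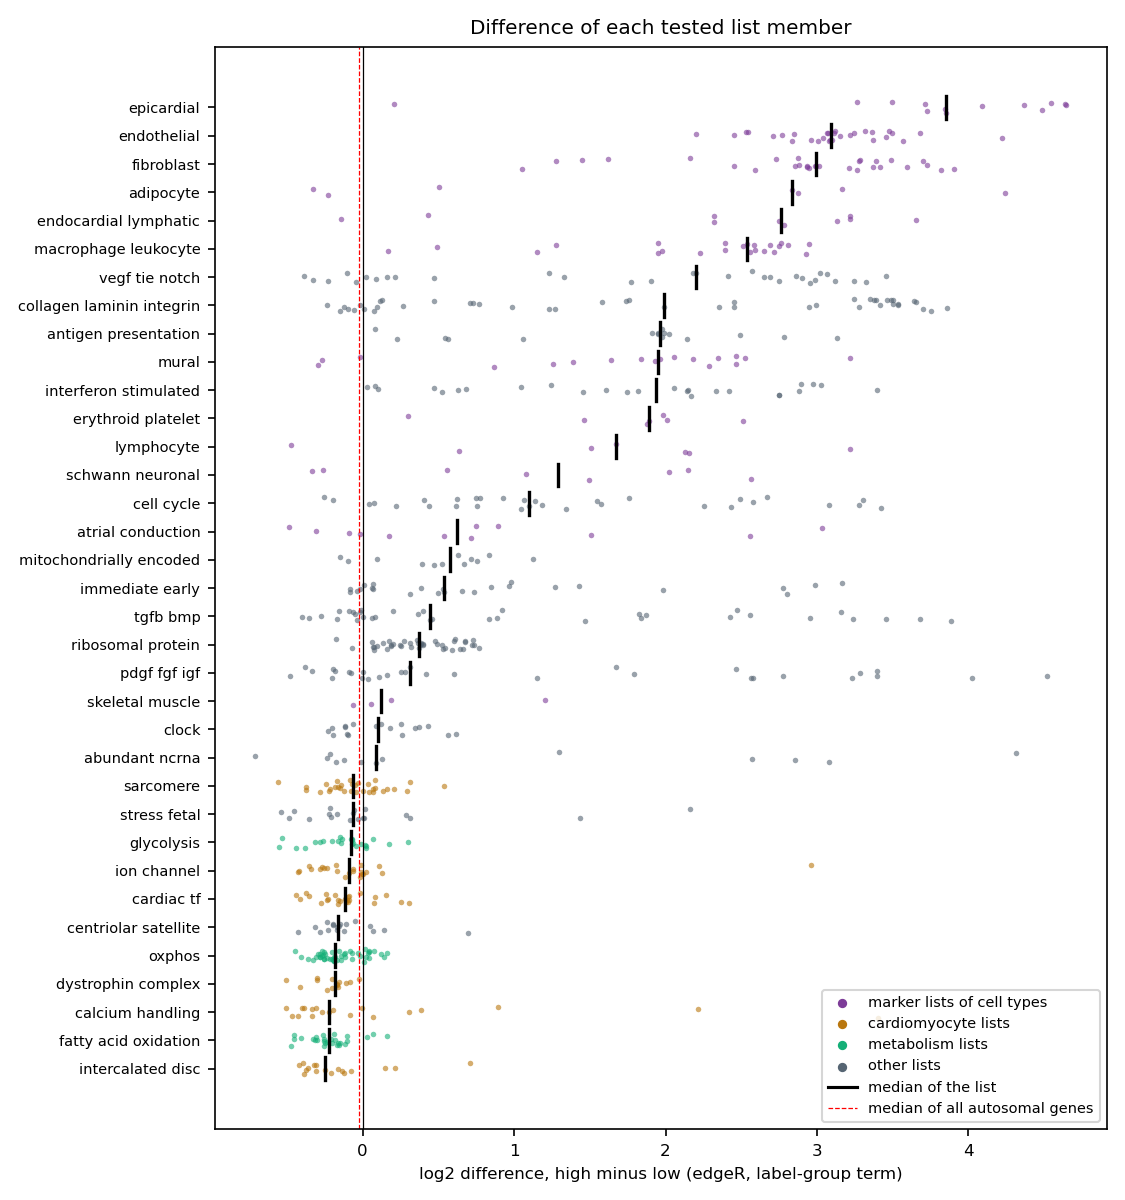
Log2 difference, high minus low, of each tested member of the 35 lists (points), with the list medians as black bars. List medians run from 3.85 (epicardial) to -0.25 (intercalated disc), and cardiomyocyte and metabolism lists lie near the dashed median of all autosomal genes, -0.03.

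Cardiomyocyte genes stood near level. Over the cardiomyocyte and metabolism lists together, 144 of 231 tested genes were level, 8 were called higher and 48 lower, beside backgrounds of 41.0%, 20.6% and 8.05%. On total counts 163 were level (116 of them shared with the first 144), and 10 were called higher and 8 lower. With size factors taken from the cardiomyocyte lists alone, an alternative added after the data had been seen, 161 were level (131 shared), with 12 called higher and 1 lower. With the replicate number as a block, a fit in which only the libraries numbered 2 differ in kind within a number, 28 were level (26 shared), 3 were called higher and 2 lower. In the sarcomere list 23 of 32 were level and the median was -0.06, or -0.03 relative to all genes. The medians of the sarcomere, ion channel and glycolysis lists turned positive on total counts and with the cardiomyocyte factors (0.09 and 0.05 for the sarcomere), that of the cardiac transcription factors did so on total counts only (0.04), and those of calcium handling, intercalated disc, dystrophin complex, oxidative phosphorylation and fatty acid oxidation stayed negative under both.

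Sarcomere genes with a level difference included thick and thin filament proteins. Ttn, the titin gene, which gave 61.3% of the summed sarcomere level in low libraries, had 23125 to 39930 CPM in high and 32734 to 41846 CPM in low libraries (-0.08 ± 0.12). Myh6, the main myosin heavy chain of the adult mouse heart, had 2963 to 5711 CPM in high and 3097 to 6288 CPM in low libraries (0.04 ± 0.18), and the troponin genes Tnnt2 and Tnni3 differed by -0.14 ± 0.16 and 0.07 ± 0.16. Both kinds of library overlap in each of these genes, and for Ttn the lowest library is a high one. The narrowest intervals belonged to Lmod2 (-0.18 ± 0.08), which nucleates thin filaments, Csrp3 (-0.16 ± 0.09), Myoz2 (-0.24 ± 0.09) and Nexn (-0.28 ± 0.07). Nexn, Nebl (-0.38 ± 0.09) and Pdlim5 (-0.56 ± 0.17), all proteins of the Z-disc region, were the 3 called lower. That is 9.38% of the 32 tested, near the 8.05% over all autosomal genes. Myl4 (0.54 ± 0.19), an atrial light chain, was the 1 called higher.

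Calcium handling was the least level of these lists, with 5 of 19 level, 4 called higher and 7 lower. These shares are 26.3%, 21.05% and 36.8%, beside 41.0%, 20.6% and 8.05% over all autosomal genes. The higher share is thus near that of all genes, and the lower share is above it. Atp2a2, the calcium pump SERCA2 of the sarcoplasmic reticulum, had 3212 to 4053 CPM in high and 4218 to 5072 CPM in low libraries, without overlap (-0.33 ± 0.08). It was both level and called lower. Pln, its inhibitor phospholamban, had 879 to 1642 CPM and 1337 to 2274 CPM with overlap (-0.46 ± 0.14), and Trdn, triadin, differed by -0.51 ± 0.16. Cacna1c, the pore of the L-type calcium channel, was level (-0.19 ± 0.10), and Ryr2, the release channel, differed by -0.27 ± 0.11. Atp2b4, a calcium pump of the plasma membrane, had the largest difference of the list, with 16.6 to 24.8 CPM in high and 0.717 to 5.64 CPM in low libraries (3.40 ± 0.31). Its relative Atp2b1 was level, at -0.08 ± 0.10. Fkbp1b also stood higher without overlap, at 0.303 to 0.572 CPM in high and 0.0236 to 0.205 CPM in low libraries (2.21 ± 0.31). Its low values reach the floor of 3 counts.

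Ion channels and the dystrophin complex were mostly level, whereas intercalated disc genes were called lower as often as they were level. Of 23 channel genes 14 were level, among them the potassium channel Kcnj5 (0.02 ± 0.11), and Kcna5 (2.96 ± 0.32) was the 1 called higher, from 0.0707 to 0.395 CPM in low to 0.934 to 2.60 CPM in high libraries. Of 17 intercalated disc genes 8 were level and 8 were called lower, with cadherin Cdh2 (-0.39 ± 0.12), plakophilin Pkp2 (-0.37 ± 0.10) and desmocollin Dsc2 (-0.42 ± 0.11) among the latter. The junction genes called higher were Gja5 (0.71 ± 0.14), a connexin of conduction tissue and arterial endothelium, and Ctnnb1 (0.21 ± 0.07). Dmd (-0.50 ± 0.15) and Dtna (-0.41 ± 0.11) were called lower among 14 dystrophin complex genes, of which 9 were level, utrophin Utrn (-0.11 ± 0.07) with the narrowest interval.

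Of 25 cardiac transcription factors 17 were level (68%), none was called higher by edgeR and 5 were called lower (20%). Gata4 had 264.7 to 440.3 CPM in high and 333.0 to 501.0 CPM in low libraries (-0.12 ± 0.11), Nkx2-5 differed by -0.11 ± 0.17 and Gata6 by -0.18 ± 0.08. Esrrg, an orphan receptor that drives mitochondrial genes, had 1655 to 1921 CPM in high and 1978 to 2590 CPM in low libraries without overlap (-0.27 ± 0.08), and Mef2a, Mef2c, Rxrg and Ppargc1a were the other 4 called lower. In metabolism no gene was called higher by edgeR. Of 48 genes of oxidative phosphorylation 39 were level (81.25%) and 13 called lower (27.1%). Of 25 glycolytic genes 18 were level (72%) and 4 called lower (16%). A gene that was both, as Ndufs1 and Sdhc were, counts in each number. Gapdh was level at 0.07 ± 0.10, whereas Ldhb, the heart form of lactate dehydrogenase, had 199.8 to 236.5 CPM in high and 245.7 to 317.1 CPM in low libraries (-0.38 ± 0.08). Of 28 genes of fatty acid oxidation 11 were level and 3 called lower, Etfa (-0.46 ± 0.11), Hadh (-0.30 ± 0.09) and Acsl1 (-0.26 ± 0.08). These shares are 39.3% and 10.7%, beside 41.0% and 8.05% over all autosomal genes.

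Pcm1 itself, whose protein the sort used, had 134.6 to 204.6 CPM (median 153.7) in high and 159.4 to 238.6 CPM (median 204.5) in low libraries, a difference of -0.28 ± 0.12 that was not called. Of 18 genes of centriolar satellites and centrosomes 14 were level, Akap9 (-0.19 ± 0.07), Akap6 (-0.31 ± 0.10) and Fgfr1op (-0.42 ± 0.08) were called lower and Ninl (0.70 ± 0.20) higher. These shares are 77.8% level, 16.7% lower and 5.56% higher, beside 41.0%, 8.05% and 20.6% over all autosomal genes. Akap6 anchors centrosomal proteins at the nuclear envelope of muscle cells.

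Genes of signalling pathways are given with ligands and receptors side by side. Nrg1, the neuregulin that endothelium and endocardium release, had 53.6 to 137 CPM (median 92.0) in high and 1.79 to 10.9 CPM (median 2.63) in low libraries (4.52 ± 0.39), 1 of the 15 largest differences among autosomal genes at 1 CPM or more. Its receptor on cardiomyocytes, Erbb4, had 884 to 1957 CPM in high and 1291 to 2138 CPM in low libraries (-0.48 ± 0.16), and the partner receptor Erbb2 differed by 0.28 ± 0.14. The pair thus stood on opposite sides of 0.

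In the VEGF, angiopoietin and Notch list 22 of 31 genes were called higher, none lower by edgeR. The receptors Flt1 (3.12 ± 0.22), Kdr (3.07 ± 0.25), Tek (3.25 ± 0.30) and Tie1 (3.45 ± 0.24) were among the 22. Their ligands Vegfa (-0.05 ± 0.18), Vegfb (0.02 ± 0.13) and Angpt1 (-0.39 ± 0.16) were not, and Angpt2, which endothelial cells make, was (2.20 ± 0.26). Vegfa had 156.9 to 403.4 CPM in high and 258.4 to 486.4 CPM in low libraries, so the ligand overlapped while the receptor Flt1 did not (36.5 to 57.6 against 3.43 to 9.23 CPM). Notch1 (3.33 ± 0.23) and its ligands Dll1 (3.02 ± 0.21) and Dll4 (2.86 ± 0.27) stood higher together.

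Of 35 genes of TGF-beta and BMP signalling 21 were called higher and 1 lower. The endothelial receptors Eng (3.68 ± 0.28) and Acvrl1 (3.16 ± 0.26) and the ligand Bmp6 (3.88 ± 0.28) had the large differences, with Bmp6 at 54.0 to 90.8 CPM in high and 2.64 to 12.3 CPM in low libraries. The widely made receptors Tgfbr1 (-0.06 ± 0.12) and Bmpr2 (0.00 ± 0.12) did not differ beyond their error, and Bmpr1a was the 1 called lower (-0.35 ± 0.11). In the list of PDGF, FGF, IGF and neuregulin genes 13 of 31 were called higher and 3 lower. These shares are 41.9% and 9.68%, beside 20.6% and 8.05% over all autosomal genes. Besides Nrg1, the higher ones included the binding proteins Igfbp4 (3.40 ± 0.24), Igfbp6 (4.02 ± 0.36) and Igfbp7 (3.23 ± 0.22) and Fgf10 (3.40 ± 0.38); Fgf13, which modulates sodium channels, was called lower (-0.38).

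Matrix genes covered the whole range. Of 45 collagens, laminins, integrins and relatives 33 were called higher and none lower by edgeR, with a median of 1.99. Among the largest differences were those of the collagen genes Col15a1 (3.86 ± 0.35) and Col3a1 (3.70 ± 0.39). Col3a1 had 104 to 297 CPM in high and 7.17 to 40.3 CPM in low libraries. Col4a1, a basement membrane collagen that many cells make, lay between with 168.8 to 243.7 CPM and 93.3 to 159.6 CPM (0.71 ± 0.12). The laminin chain Lama2 (-0.24 ± 0.13) and the integrins Itga7 (-0.06 ± 0.11) and Itgb1 (-0.02 ± 0.15), which anchor muscle cells, did not differ beyond about 2 standard errors.

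Immune and interferon genes stood higher alongside leukocyte markers. Of 16 antigen presentation genes 13 were called higher: B2m, the light chain of class I molecules, had 9.06 to 18.3 CPM in high and 2.24 to 4.66 CPM in low libraries (2.15 ± 0.20), the class I gene H2-D1 differed by 3.13 ± 0.24, and class II H2-Aa differed by 1.99 ± 0.29. Of 26 interferon-stimulated genes 21 were called higher, as Oasl2 (3.40 ± 0.22), Bst2 (3.03 ± 0.21) and Irf1 (2.34 ± 0.20). Beside them, the summed leukocyte markers were 114 to 249 CPM in high and 27.7 to 89.8 CPM in low libraries, and the endothelial ones 847 to 1614 and 82.9 to 241 CPM; their part in these genes was not tested.

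Cell cycle genes were called higher in 22 of 31, with a median of 1.10. Mki67, found in dividing cells, had 2.87 to 6.91 CPM in high and 0.189 to 1.19 CPM in low libraries (3.30 ± 0.32), Top2a differed by 3.28 ± 0.34 and the G1 cyclin Ccnd2 by 1.07 ± 0.09. Immediate early genes were called higher in 13 of 25. Klf2 (1.98 ± 0.18) and Klf4 (2.77 ± 0.21), factors that endothelium makes under flow, and Egr1 (2.99 ± 0.27) were among them, while Fos (-0.08 ± 0.67) varied more than any difference, from 0.320 to 15.5 CPM within the low libraries alone. Of 19 stress and fetal genes, only Timp1 (2.16 ± 0.30) and Hmox1 (1.43 ± 0.24) were called, both higher (10.5%, beside 20.6% over all autosomal genes). Only 4 of the 19 were level (21.05%, beside 41.0%), so most were neither called nor level. Nppb, the B-type natriuretic peptide, had 59.2 to 154 CPM in high and 63.7 to 258 CPM in low libraries (-0.54 ± 0.28). None of 18 clock genes was called by edgeR, 3 were level (16.7%), and Per1 differed by 0.57 ± 0.26.

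Ribosomal protein genes formed a list of small differences, with 18 of 42 called higher, 11 level and a median of 0.38. Rpl8 had 9.67 to 14.4 CPM in high and 4.66 to 9.31 CPM in low libraries (0.73 ± 0.15), and Rpl5 differed by 0.06 ± 0.13. Mitochondrially encoded genes had a median of 0.58 with 4 of 12 called, and within the label groups that median was 1.27 in knockout females, 0.89 in knockout males, -0.71 in wild-type females and 0.12 in wild-type males, so it had no common sign. Of 13 abundant noncoding RNAs 4 were called higher and none lower by edgeR, with a median of 0.09. The 4, all from imprinted loci, were H19 (4.32 ± 0.23), with 3.56 to 6.62 CPM in high and 0.118 to 0.425 CPM in low libraries, and Meg3 (3.08 ± 0.21), Rian (2.57 ± 0.21) and Mirg (2.85 ± 0.21), which lie together on chromosome 12. Snhg14, also from an imprinted locus, had medians of 21.7 CPM in high and 43.0 CPM in low libraries, with overlap, and was not called (-0.71 ± 0.27). Malat1 (-0.21 ± 0.09) and Neat1 (-0.12 ± 0.17), abundant in all nuclei, were level.

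The 15 autosomal genes with the largest higher differences (mean of 1 CPM or more, no overlap) lay between 3.91 and 4.73. Adh6b, an alcohol dehydrogenase, differed most, by 4.73 ± 0.44, and Cilp (4.20 ± 0.29), a matrix protein, Slco2a1 (4.07 ± 0.24), a prostaglandin transporter, Cd248 (4.03 ± 0.35), a sialomucin of stromal cells, and Has2 (3.94 ± 0.40), a hyaluronan synthase, were among the others. In low libraries Adh6b (0.0236 to 0.237 CPM), Cd248 (0.0707 to 0.996 CPM) and Has2 (0 to 0.545 CPM) reach the floor of 3 counts. The size and rank of their differences therefore rest on few counts. The 15 largest lower differences were far smaller, at 0.68 to 0.75 times the low libraries. Mfn1, which fuses mitochondria, had 435 to 488 CPM in high and 564 to 775 CPM in low libraries (-0.51 ± 0.09), and Trim55, a ubiquitin ligase of the sarcomere, 505 to 638 and 676 to 980 CPM (-0.48 ± 0.09). Lrpprc (-0.47 ± 0.10), which stabilises mitochondrial messenger RNA, Prkaa2 (-0.41 ± 0.10), the muscle form of the AMP kinase, and Asb15 (-0.42 ± 0.09) lay close to these. Over all autosomal genes the lower calls drop from 1358 to 148 on total counts. Which of the genes named here keep their call there is not given.

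**Figure D4:**
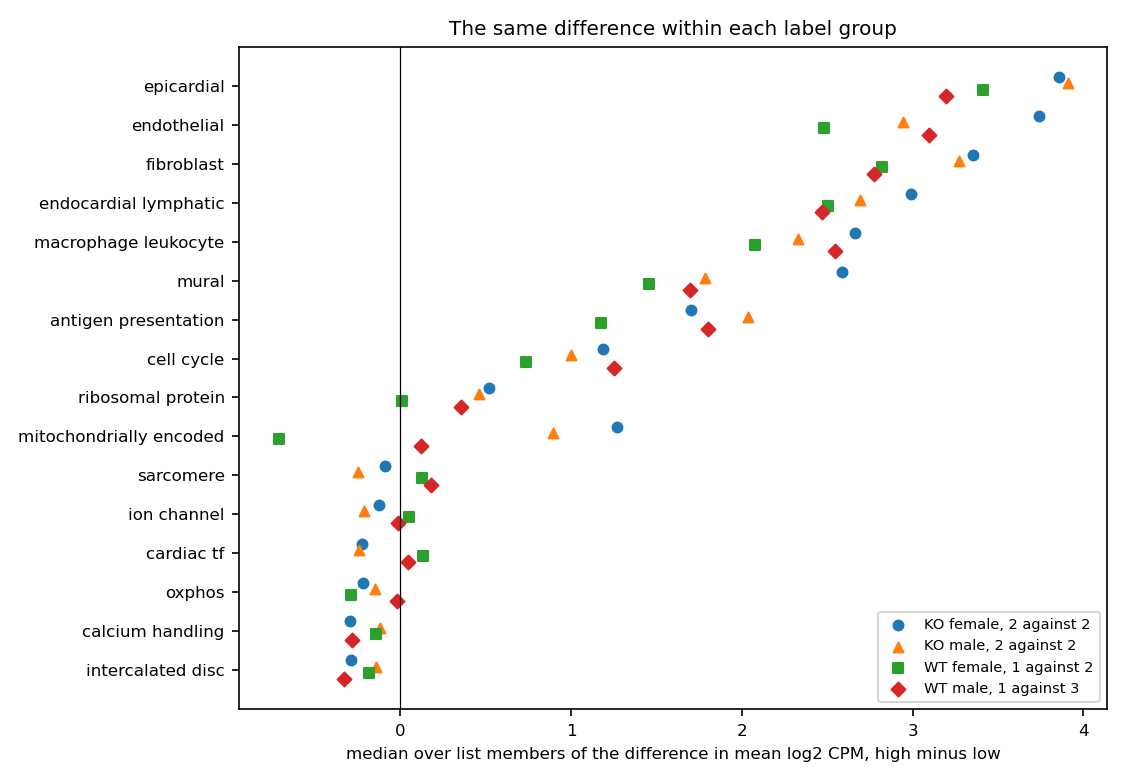
Median over list members of the difference in mean log2 CPM, high minus low, within each label group (KO, labelled knockout; WT, labelled wild type; high against low libraries as stated in the key). The endothelial, fibroblast, mural, leukocyte and epicardial lists lie at 1.45 or more in all 4 groups, and the sarcomere list lies between -0.25 and 0.18.

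The difference was present within each label group. The endothelial median was 3.74 in knockout females (2 high against 2 low), 2.94 in knockout males (2 against 2), 2.48 in wild-type females (1 against 2) and 3.09 in wild-type males (1 against 3). For fibroblast markers these medians were 3.35, 3.27, 2.82 and 2.77, and for epicardial markers 3.86, 3.91, 3.41 and 3.20. The sarcomere median was -0.09 and -0.25 under the knockout label and 0.13 and 0.18 under the wild-type label. Whether the size of the difference depended on a label was tested gene by gene, as an interaction that the split itself does not fix. For the genotype label 0 of 17455 genes (0.00%) passed the adjusted threshold in edgeR, with 889 at an unadjusted p below 0.05, against 3 in DESeq2 (Dapp1, AI464131 and AC115970.1) and 0 in limma-voom. For the sex label 0 genes (0.00%) passed in edgeR, with 261 at an unadjusted p below 0.05, and 0 in DESeq2 and limma-voom. The kind of library took a median of 17.9% of the variance of a gene beyond the label groups, and the label groups 13.6% beyond the kind of library. These shares cannot be compared. The label groups use more terms in the fit, and a share grows with the number of terms even without a real difference. The kind of library was itself set by a gene measured in these data.

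**Figure D5:**
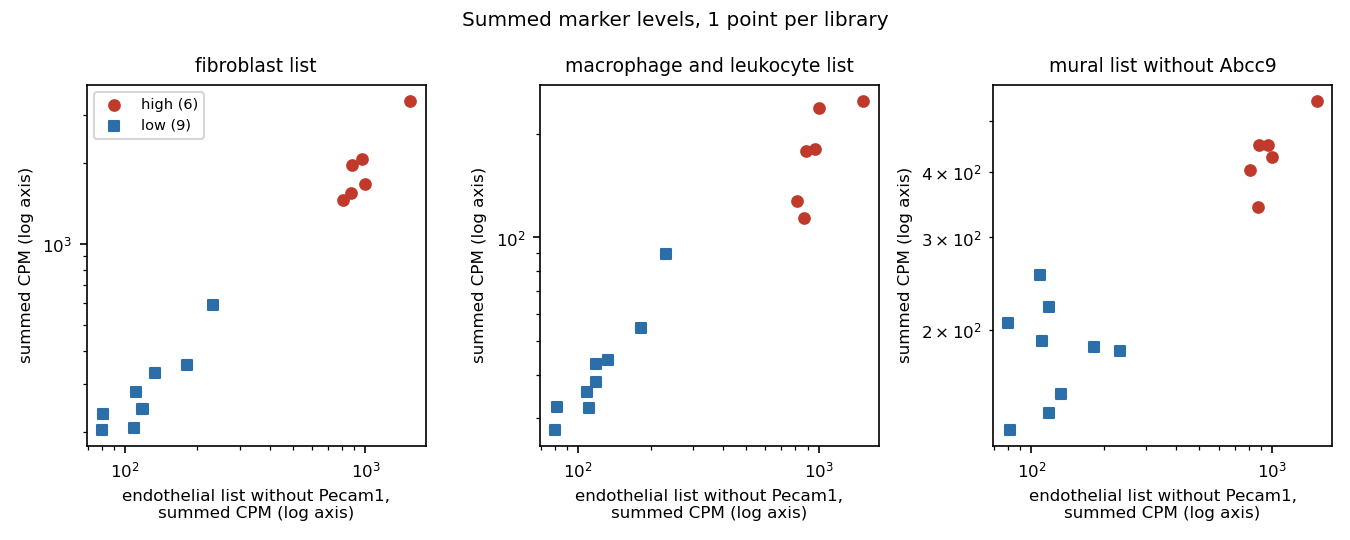
Summed CPM of the fibroblast list, the leukocyte list and the mural list without Abcc9 (y, log axes) against that of the endothelial list without Pecam1 (x, log axis), 1 point per library, 6 high (red circles) and 9 low (blue squares). Within the low libraries, fibroblast and leukocyte sums go up with the endothelial sum (r of 0.906 and 0.954), and the mural sum without Abcc9 does not (r of 0.0632).

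Within each kind of library the content still varied, and this variation was not used by the split. Across the 9 low libraries the endothelial sum without Pecam1 spanned 2.9 times (80.2 to 233 CPM). On the log2 scale it went together with the fibroblast sum (Pearson r = 0.906, exact permutation p = 0.000535, adjusted 0.0016; Spearman rho = 0.917, p = 0.00131, adjusted 0.00394) and with the leukocyte sum (r = 0.954, p = 3.03e-05, adjusted 0.000182; rho = 0.95, p = 0.000353, adjusted 0.00212), with adjustment over 6 relations. Without the 2 libraries farthest from the median, wild-type male 2 and wild-type female 3, r was 0.663 and 0.859 (n = 7, a description). It did not go together with the mural sum (r = -0.25, exact permutation p = 0.52, adjusted 0.52; rho = -0.233, p = 0.552, adjusted 0.552; r = -0.252 without the 2 libraries), nor with that sum without Abcc9 (r = 0.0632, exact permutation p = 0.872), an alternative added after the data had been seen. All sums share a library's scaling factor.

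Across the 6 high libraries the endothelial sum spanned 1.9 times. Its relation to the fibroblast sum had r = 0.929 (exact permutation p = 0.025, adjusted 0.05; rho = 0.829, p = 0.0583, adjusted 0.0875), but without knockout female 2 and knockout female 1, the 2 farthest from the median, r was 0.167, so the relation rests on those libraries. For the leukocyte sum r was 0.749 (exact permutation p = 0.0375, adjusted 0.0562; rho = 0.943, p = 0.0167, adjusted 0.0333), and 0.817 without the same 2. For the mural sum r was 0.82 (exact permutation p = 0.0611, adjusted 0.0733; rho = 0.543, p = 0.297, adjusted 0.357), and 0.26 without them.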

How the data were processed

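Raw read counts per gene of 15 libraries were used as the authors deposited them. The submitters' processing notes name STAR 2.5.3a, featureCounts 1.5.0 and the build GRCm38, and gene lengths in the file span whole gene bodies. The unfiltered table (55536 genes) was used; the filtered one was not used here. Reads of overlapping or near-identical genes can be lost or split: of 790 genes in 35 lists, 789 were in the table and 58 of these were not tested, 13 of them listed at 0 in every library, among them Cox4i1, Rpl13 and Myom1, so a 0 does not show absence.

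Genes were kept by filterByExpr (17455 tested, 16876 autosomal), scaled by TMM and fitted with edgeR 4.0.16 in R 4.3.3 (quasi-likelihood, robust, 10 residual degrees of freedom), with 1 term for high or low content and the 4 label groups. The code was tested on simulated counts. Standard errors come from the estimate and its F statistic, and intervals are at 95%. The floor of 3 counts covers counting error only, since the reads carry no stated molecular identifiers. DESeq2 1.42.0 and limma 3.58.1 served as alternatives, and correlations used SciPy 1.17.1. No pair of libraries of the same label group was within sampling noise of each other. Pairs from different label groups were not compared in this way.

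Members, lists and tests were chosen with earlier results of these data known. Named genes are the 4 markers, Pgr and Pcm1; the 15 largest higher and 15 largest lower called autosomal genes without overlap and at a mean of 1 CPM or more, predicted names left out; up to 5 members of each list by smallest p; and up to 4 level members per cardiomyocyte or metabolism list by narrowest interval. Other list members named were chosen after their values were seen, for their known role. Lists share members, for instance Flt1 and Eng. Alternatives covered scaling, filters, tools, the split, the label term, the replicate block and leaving out libraries. The rule also picked 4 promoters, which held no motif and are not printed.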

Additional observations from a re-analysis of the deposited data

Results flagged for a closer look

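In groups of 6 high and 9 low libraries, 10 of 38 values tested had a library that lay far from the others. The rule marks about 1 in 20 by chance where values are separate and normally distributed. Here they are not separate, since Pecam1, Dcn and Ptprc are also members of summed lists. The number marked is therefore not compared with that rate. Knockout female 2 was far above the other high libraries in the summed endothelial markers (1614 CPM, next 1047 CPM), the fibroblast markers (3397 CPM, next 2058 CPM), the Schwann and nerve markers (111.7 CPM, next 71.4 CPM), in Pecam1 (79.5 CPM, next 47.6 CPM) and in Dcn (328.4 CPM, next 138.0 CPM). Wild-type male 2 was far above the other low libraries in the fibroblast markers (592.9 CPM, next 354.7 CPM) and the leukocyte markers (89.8 CPM, next 54.7 CPM). It was so too in the lymphocyte markers (61.1 CPM, next 35.1 CPM) and Ptprc (4.74 CPM, next 2.16 CPM). Ebf1, which is also in the mural list, gave 54.7 CPM of that lymphocyte sum, and 87.2% of the sum over the low libraries. Wild-type female 2 had the highest mitochondrial share among the low libraries (0.619%, next 0.439%). These 3 libraries are also the ones that hold reads of the other sex, and whether the 2 facts are linked was not tested.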

How the results depend on the processing

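The genes called higher (3481) and lower (1358) numbered 2163 and 802 with a mean of at least 1 CPM, which tested fewer genes, and 0 and 0 when the split was made at the largest gap in Dcn, which leaves knockout female 2 alone on the high side. In that split the differences of Adipoq (-0.47), Gja5 (-0.15), Mef2c (0.0226), Pln (0.0172) and Ppargc1a (0.000788) changed sign. The lower calls numbered 148 on total counts, 2508 with DESeq2 and 86 with cardiomyocyte size factors, an alternative chosen after the data had been seen. Without the 3 libraries that hold reads of the other sex, 3394 were called higher and 934 lower. With the replicate block, a fit in which only the libraries numbered 2 differ in kind within a number, the calls were 1989 higher and 140 lower. Same-numbered libraries correlated by -0.439 to 0.849 in their deviations from the label groups, and by -0.369 to 0.502 once content was in the model. With content in the model, all 6 pairs of libraries numbered 2 lay at 0.182 to 0.502, while pairs of other numbers fell on both sides of 0. Knockout females and males correlated by 0.509 to 0.834 in all 4 pairs before content was in the model and by -0.206 to 0.326 after. The labels do not say what a number stands for, so whether the numbers pair the libraries cannot be settled. Leaving out 1 library gave 2986 to 3597 higher and 473 to 1871 lower calls, fewest without wild-type male 1. The interaction with the genotype label had 190 calls without a low-count filter, 3 with DESeq2 and 0 to 1 with 1 library left out; that with the sex label had 50 without the filter and 0 with any library left out. The replicate block left both at 0. The cause of these shifts was not tested.

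The depth difference ranged from -0.50 to -0.19 with 1 library left out. Correlations with the endothelial sum ranged, with 1 library left out, from 0.815 to 0.928 (fibroblast), -0.549 to 0.133 (mural) and 0.93 to 0.968 (leukocyte) in low libraries. In high libraries they ranged from 0.545 to 0.963, 0.195 to 0.875 and 0.687 to 0.841. On total counts the mural relation in high libraries passed the unadjusted threshold (r = 0.895, exact permutation p = 0.0458, n = 6). Depth limits genes near the floor of 3 counts, which is 0.0215 CPM in the deepest and 0.123 CPM in the shallowest library.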
